A study of Mus musculus with 20 samples.

Results

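The nuclear genes for the subunits of the mitochondrial respiratory chain and of ATP synthase were followed in the liver of 5 inbred mouse strains. Members were the non-control probes whose gene name began with Ndufa, Ndufb, Ndufc, Ndufs, Ndufv, Uqcr, Cox4 to Cox8 or Atp5, or was Sdha, Sdhb, Sdhc or Sdhd. That rule found 93 of the 34632 gene names on the array. It uses names alone and no measured value. The strains named in the series title as lean and protected from diabetes were C57BL/6, called B6 below, and 129P2/OlaHsd, called 129Ola. The strains it names as prone to diabetes were C3HeB/FeJ (C3H), DBA/2J (DBA) and the obese NZO/HiBomDife (NZO). Each strain gave 4 mice, all of them male and all on a diet with 45% fat, and a mouse is identified here by its strain and the animal number of its label. The labels give week 6 both as the age at sampling and as the end of the feeding period, so which of these it counts is not settled here. Total RNA was prepared from liver, and each mouse gave 1 single-colour Agilent array. A prone strain was compared with a protected one in 3 ways: C3H minus 129Ola, NZO minus B6, and DBA minus B6. NZO was also set against DBA. No group on another diet was analysed here, so every value belongs to mice on the high fat diet.

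The respiratory chain passes electrons from food to oxygen along complexes of the inner mitochondrial membrane. Complex I takes electrons from NADH, complex II takes them from succinate, complex III hands them to cytochrome c, and complex IV reduces oxygen. Complexes I, III and IV pump protons, and ATP synthase uses the returning protons to make ATP. Most subunits are encoded in the nucleus, a few of complexes I, III, IV and ATP synthase by mitochondrial DNA. Liver relies on the chain to burn fatty acids and to power glucose production. Several complex IV subunits exist as a widespread form and a form known from muscle, lung or testis.

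Of the 93 genes, 90 passed the filter on dim probes and were tested, and 89 were well above background on all 20 arrays. Complex I had 36 tested subunits, and 7 further genes were its assembly factors. Ndufa4 was counted in complex IV, where it is now placed, despite its complex I name. Complex II had 4, complex III 8, complex IV 15 of its 18 names, and ATP synthase 15. Of the remaining names, 4 had no settled place in a complex (Ndufa4l2, Cox7a2l, Atp5s and Atp5sl) and 1 was a pseudogene of Atp5c1. Cox7b2 and Cox8c were not well above background on any array, and Cox8b was well above it on 14. These 3 were not tested. Values are log2 signal minus the array's 75th percentile, so 0 is the level of that percentile and 1 unit is a doubling. Since each probe has its own brightness, levels are compared between mice and never between genes.

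The results turn on a small number of probes, and those are printed because they show what was read out for the genes that differed most. All are given 5′ to 3′ with their mm9 positions from the array annotation, and all lie on the minus strand. The probe for Ndufb8, the complex I gene that differed most between NZO and B6, spans chr19:44624855-44627199, which is longer than its 60 bases because the target crosses an intron.
Ndufb8: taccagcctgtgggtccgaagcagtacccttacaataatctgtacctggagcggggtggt
The probe for Cox6b1, with the smallest adjusted p among the members in C3H against 129Ola, spans chr7:31409575-31411071 and also crosses an intron.
Cox6b1: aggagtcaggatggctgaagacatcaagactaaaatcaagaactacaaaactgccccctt
For Cox6b2, its testis counterpart and the largest difference of all, the first 30 bases of the probe at chr7:4703488-4703547 are shown.
Cox6b2: ggaactttcccgggcaaaatatgaccttgc
The single probe of Ndufa6, which was lower in NZO, lies at chr15:82181444-82181503.
Ndufa6: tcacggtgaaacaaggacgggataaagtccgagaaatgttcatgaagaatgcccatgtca
For Atp5f1, the 25 bases in capitals are shared by both of its probes, which nevertheless gave different results.
Atp5f1: CTCTTTCTGTATTGCTATCTATTGA

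Between 40% and 59.1% of probes per array were well above background, and no spot was saturated. All 10 hepatocyte markers (albumin, apolipoprotein A1 and others) were detected in each mouse, with list means of 9.32 to 9.62. The 14 skeletal muscle markers were uneven. All 14 were detected in NZO mouse 7, B6 mouse 10 and DBA mouse 9, with list means of 0.91, -0.62 and -0.96, against -3.57 to -1.90 in the other 17 mice. B6, NZO and DBA arrays were spread over 3 scan days, whereas the C3H arrays shared 1 day and the 129Ola arrays another. For C3H against 129Ola, strain and scan day therefore cannot be told apart. In whole liver, fewer cells of a type and less RNA per cell cannot be told apart either.

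Within strains, and between B6, NZO and DBA, the members varied less than genes at large, which were not matched to them in brightness. Of the 90 members 89 were well above background on all 20 arrays, against 15203 of all 20580 genes tested. The part of brightness was not tested. The members' median standard deviation within a strain was 0.13 on the log2 scale, against 0.25 over all genes tested. The range of the B6, NZO and DBA means had a median of 0.20 for the members and 0.35 for all genes. It was widest for Cox6a2 (0.98), Atp5f1 (0.76), Cox7a1 (0.71), Ndufb8 (0.61) and Ndufa4l2 (0.59). It was narrowest, at 0.02, for Ndufb5, a membrane-arm subunit, and Ndufaf2, an assembly factor. Over all 5 strains the order was not the same, since C3H and 129Ola stood apart from the rest in a larger share of members than of all genes, as described further on. Any difference within the 3 strain contrasts (NZO and DBA against B6, C3H against 129Ola; limma's moderated F, adjusted p under 0.05) was found for 43 of 90 members, 47.8%, beside 43.8% of all genes. With each array scaled instead to the median of its well detected probes, the count was 30, or 33.3%, beside 42.8%.

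**Figure D1:**
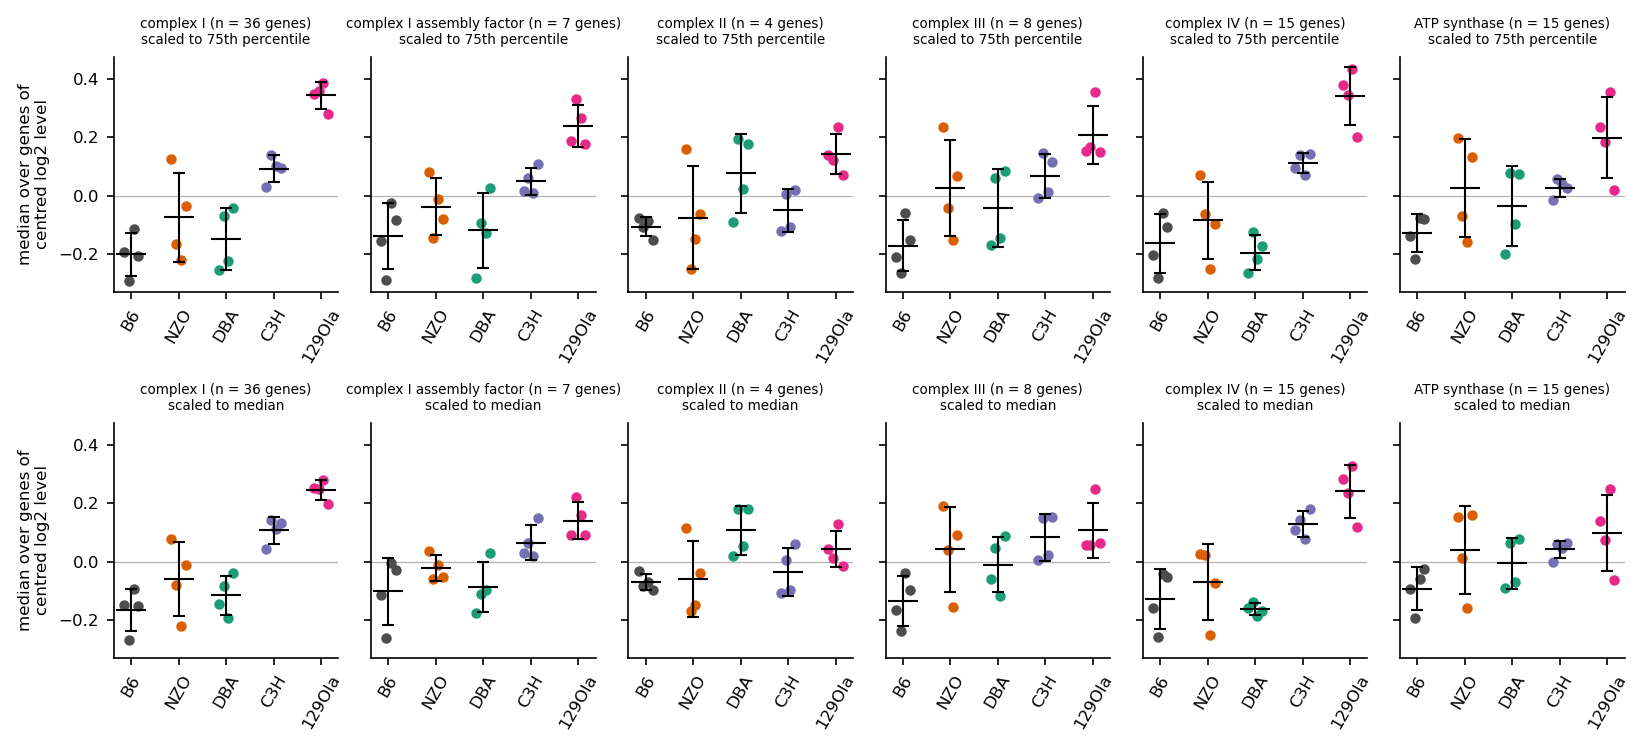
Median of the tested subunits of each complex in each mouse, on the log2 scale after centring each gene on its mean over the 20 mice, with 1 point per mouse, a bar at each strain's mean and whiskers of 1 SD (n = 4 mice). The upper row is scaled to the 75th percentile and the lower row to the median of well detected probes, and in the upper row complex I runs from -0.20 in B6 to 0.34 in 129Ola, while complex II is also high in DBA.

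The strains ranked differently by complex. In complex I the median of the 36 centred subunits averaged -0.20 ± 0.07 in B6, -0.07 ± 0.15 in NZO, -0.15 ± 0.11 in DBA, 0.09 ± 0.05 in C3H and 0.34 ± 0.05 in 129Ola (SD, n = 4 mice). B6, NZO and DBA lay within one another's spread, and 129Ola lay above all other mice. Scaling to the median of well detected probes gave -0.16, -0.06, -0.11, 0.11 and 0.24 in the same order. Complex IV followed that order apart from DBA, which at -0.19 ± 0.06 was next to B6 at -0.16 ± 0.10. With median scaling these means were -0.16 and -0.13. Complex II did not follow that order. Its DBA mean of 0.08 ± 0.13 was next to 129Ola at 0.14 ± 0.07 and above C3H at -0.05 ± 0.07. The DBA mice overlapped both of these strains. With median scaling DBA had the highest complex II mean, 0.11, beside 0.04 in 129Ola and -0.03 in C3H. ATP synthase differed little between C3H (0.03 ± 0.03) and NZO (0.03 ± 0.17), and both read 0.04 with median scaling.

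NZO livers differed from B6 livers in 7 of 90 members by limma (adjusted p under 0.05), 5 higher and 2 lower. That is 7.78% of the members, beside 17.2% of all genes tested (8.76% higher and 8.46% lower). Ndufb8 and Ndufa12 of complex I and Atp5f1, the b subunit of the ATP synthase stalk, were higher in NZO, and Cox7a1, a muscle and heart form of a complex IV subunit, was lower. The median difference over the members was 0.13, beside 0.04 over all genes. The mice of the strains did not overlap for 12 members (13.3%), beside 21.4% of all genes. Scaling to the median of well detected probes gave 10 members, 7 higher and 3 lower, beside 18% of all genes (8.68% higher and 9.37% lower).

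Ndufb8, an accessory subunit of the membrane arm of complex I, read 7.01, 6.90, 7.08 and 6.99 in B6 mice 9, 10, 11 and 15. In NZO mice 3, 7, 9 and 11 it read 7.88, 7.51, 7.43 and 7.60. All 4 NZO mice lay above all 4 B6 mice, by 0.61 ± 0.09 (SE) or 1.53-fold (limma, adjusted p = 8.64e-05). Ndufa12, an accessory subunit at the join of the matrix arm, was between 6.18 and 6.43 in B6 and between 6.61 and 6.93 in NZO, again without overlap. It was higher by 0.47 ± 0.09 (adjusted p = 0.00128). Ndufv3, an accessory subunit of the NADH-binding module, read 2.79, 2.79, 3.00 and 2.81 in B6 and 3.31, 3.23, 3.04 and 3.14 in NZO. Its difference was 0.34 ± 0.08 (adjusted p = 0.00652), and the lowest NZO mouse was just above B6 mouse 11. The Ndufv3 call held under 4 of 5 other scalings and background corrections (limma, adjusted p = 0.162 under the remaining one).

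Ndufa6 went the other way within the same complex. It read 6.42, 6.55, 6.43 and 6.59 in B6 and 6.44, 6.05, 6.11 and 6.21 in NZO, where mouse 3 lay inside the B6 range. The difference was -0.30 ± 0.09 (adjusted p = 0.026). Of the 36 complex I subunits, 3 were higher, 1 was lower and 32 did not pass. In complex III, Uqcr11, a small accessory subunit, lay between 7.46 and 7.63 in B6 and between 7.66 and 7.96 in NZO, without overlap. It was higher by 0.25 ± 0.08 (adjusted p = 0.0334). This call ended under 4 of 5 other scalings and background corrections (adjusted p = 0.115 to 0.289) and without B6 mouse 9 or 10 or NZO mouse 3, 7 or 11 (up to 0.112). Ndufa6 lost its call without B6 mouse 10 or 15 or NZO mouse 7, 9 or 11 (adjusted p up to 0.0808). The remaining 7 complex III genes did not pass, although all 8 differences were above 0. The widest of them, Uqcrb at 0.30 ± 0.27, had an adjusted p of 0.511.

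In ATP synthase, Atp5f1 was the only one of 15 subunits to pass. Its mean over both probes read 5.66, 5.62, 5.68 and 5.68 in B6 and 6.67, 6.22, 6.36 and 6.43 in NZO. The groups did not overlap and differed by 0.76 ± 0.11, or 1.69-fold (adjusted p = 9.94e-05), but the probes were far apart, as described further on. Atp5j, the coupling factor subunit, had the smallest difference (-0.0013). None of the 4 complex II genes passed by limma, and 1 had an unadjusted p under 0.05. That was Sdhb, the iron-sulphur subunit, at 0.28 ± 0.10 (adjusted p = 0.0556). It passed with median scaling at 0.26 (adjusted p = 0.0375), as did Ndufa9 (0.20) and, lower, Ndufc2 (-0.25).

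All 7 differences kept their direction within the first scan day, with 2 B6 and 3 NZO mice. They also did so within the second, with 2 B6 mice and 1 NZO mouse, mouse 7. For Ndufb8 the differences were 0.69 and 0.46, and for Cox7a1 -0.66 and -0.57. The 7 members were picked by their differences over these same mice, so the shared direction is no separate check. On the second day 1 NZO mouse is also too few for one. Macrophage markers were lower in NZO for 6 of 10 genes, with list means of 2.52 to 2.72 against 3.06 to 3.65 in B6. Stellate cell markers were lower for 3 of 8, with 0.39 to 0.85 against 1.14 to 1.25, cholangiocyte markers for 2 of 5 and lymphocyte markers for 1 of 6, and 1 of 7 erythroid markers was higher. Their part in these results was not tested.

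**Figure D2:**
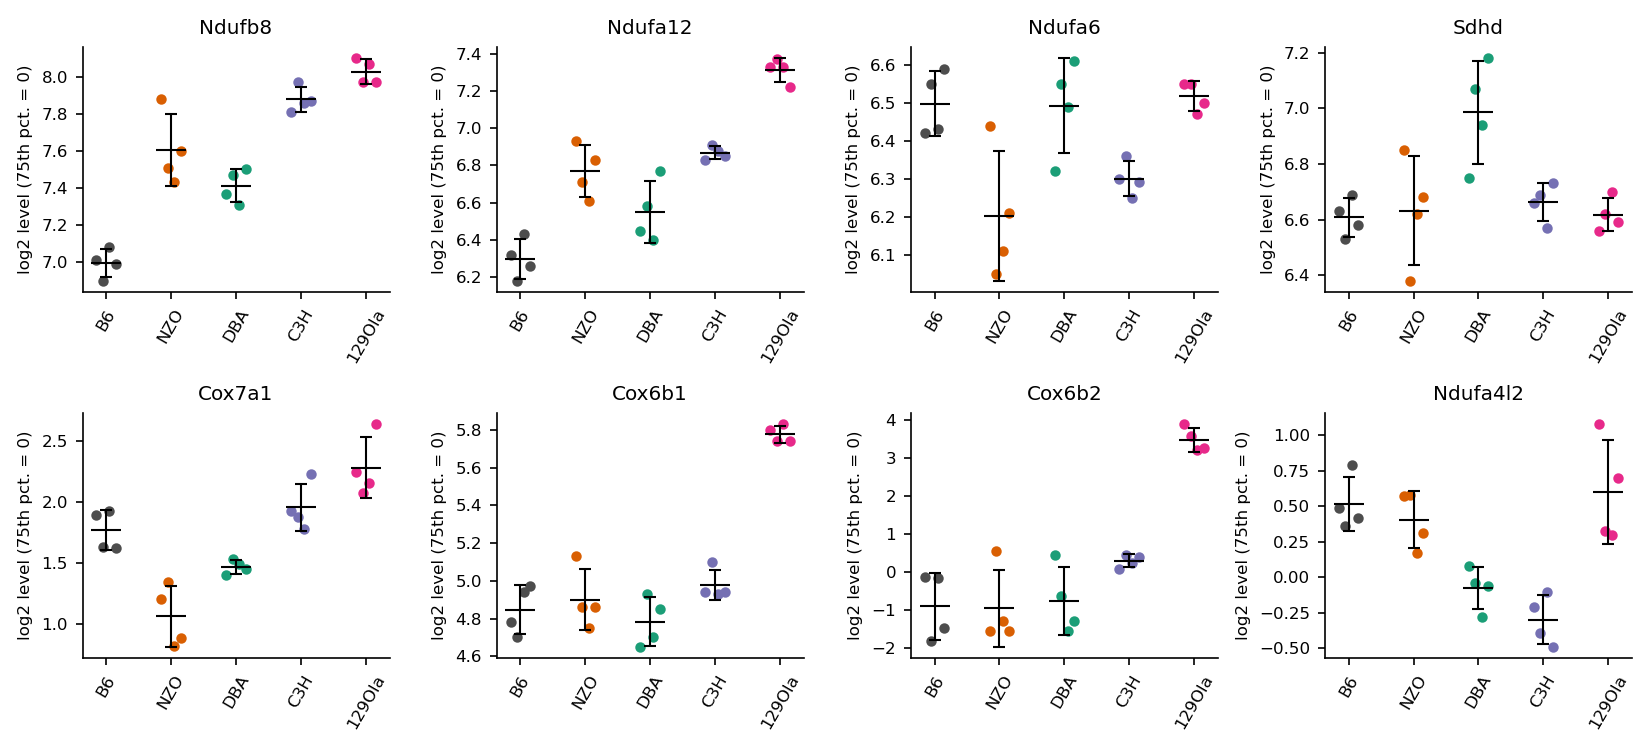
Level of 8 members in each mouse, as log2 signal minus the array's 75th percentile, with 1 point per mouse, a bar at each strain's mean and whiskers of 1 SD (n = 4 mice). Ndufb8 is higher in NZO and DBA than in B6, Ndufa6 is lower in NZO, Sdhd is higher in DBA, and Cox6b1 and Cox6b2 stand above the other 4 strains in 129Ola.

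DBA livers also differed from B6 in 7 of 90 members, 4 higher and 3 lower, which is 7.78% beside 14.7% of all genes (6.76% higher and 7.91% lower). Ndufb8 was again among the higher ones, with Sdhd and Ndufa3. Ndufa4l2, Ndufaf6 and Cox7c were lower. The B6 mice are the same in both comparisons. The median difference over the members was 0.07, beside 0.01 over all genes. The strains did not overlap for 15 members (16.7%), beside 19% of all genes. With median scaling 11 members passed, 7 higher and 4 lower, beside 15.6% (7.24% higher and 8.35% lower), and Ndufaf1, Ndufa9, Sdhb and, lower, Atp5h were the additions. With scan day as a block 2 passed, or 2.22%, beside 12.2%.

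Ndufb8 read 7.37, 7.47, 7.31 and 7.50 in DBA mice 5, 8, 9 and 15, above all B6 mice, a difference of 0.42 ± 0.09 (limma, adjusted p = 0.00334). It was the only one of the 7 to pass with each mouse left out in turn. Sdhd, which anchors complex II in the membrane and helps bind ubiquinone, read 6.63, 6.53, 6.69 and 6.58 in B6 and 6.75, 7.07, 6.94 and 7.18 in DBA. The groups did not overlap, and the difference was 0.37 ± 0.10 (adjusted p = 0.0162). It was 0.39 within the first scan day and 0.08 within the second, each a single DBA mouse against 2 B6 mice, too few for a check. The highest DBA mice for Sdhd were mice 8 and 15, the only arrays of the third scan day, and the part of the day was not tested beyond these values.

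Among the lower ones, Ndufa4l2, a relative of Ndufa4 known as a hypoxia target, read 0.49, 0.36, 0.79 and 0.42 in B6. In DBA it read 0.08, -0.04, -0.28 and -0.06, below every B6 mouse. The difference was -0.59 ± 0.16 (adjusted p = 0.0169). It lost its call without B6 mouse 11 or DBA mouse 9 (adjusted p up to 0.0669). Ndufaf6, an assembly factor of complex I, read 2.76, 2.67, 2.87 and 2.89 in B6 and 2.30, 2.55, 2.49 and 2.61 in DBA. Its groups did not overlap and differed by -0.32 ± 0.10 (adjusted p = 0.0378). Cox7c, a small complex IV subunit, differed by -0.47 ± 0.16 (adjusted p = 0.0499), and Ndufa3, an accessory subunit of complex I, by 0.31 ± 0.10 (adjusted p = 0.0396). Both of these rest on probes that disagree. No member of complex III or ATP synthase passed by limma, and 0 and 1 of them had an unadjusted p under 0.05. The largest differences there were those of Uqcrb (0.22) and Atp5o (0.22). The macrophage list was lower for 6 of 10 genes here too, with means of 2.44 to 2.60 in DBA. Stellate cell markers were lower for 4 and higher for 1 of 8 (0.73 to 0.95 in DBA), endothelial markers lower for 2 of 8 (1.70 to 1.96, against 2.17 to 2.43 in B6), and erythroid markers higher for 3 of 7 (2.38 to 3.66 against 2.33 to 2.73). Of 5 cholangiocyte markers 1 was higher and 1 lower, and 1 of 6 lymphocyte and 1 of 10 hepatocyte markers were lower. Their part was not tested.

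NZO and DBA, set against each other, differed in 8 of 90 members, 5 higher and 3 lower in NZO. That is 8.89%, beside 16.3% of all genes (8.78% higher and 7.48% lower). With median scaling it was 4 higher and 4 lower, beside 17.2% (8.8% higher and 8.39% lower). The mice did not overlap for 7 members (7.78%), beside 19%. Sdhd was lower in NZO, where it read 6.85, 6.38, 6.62 and 6.68. NZO mouse 3 reached the DBA range, and the other 3 NZO mice were below it. The difference was -0.35 ± 0.10 (limma, adjusted p = 0.024). Ndufa6 was also lower in NZO (-0.29, adjusted p = 0.0306). Atp5f1 (0.61, adjusted p = 0.000868), Ndufaf6 (0.34, adjusted p = 0.0249) and Ndufa4l2 (0.48, adjusted p = 0.0482) were higher, the last with an adjusted p of 0.0594 under median scaling.

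Atp5h, the d subunit of the ATP synthase stalk, read 8.09, 7.93, 7.81 and 8.01 in NZO and 7.54, 7.66, 7.64 and 7.66 in DBA. The strains did not overlap, and the difference was 0.33 ± 0.07 (limma, adjusted p = 0.00388). Cox4i1, the widespread form of a complex IV subunit that responds to ATP, read 8.63, 8.44, 8.33 and 8.45 in NZO. In DBA it read 8.23, 8.26, 8.27 and 8.19, a difference of 0.22 ± 0.07 (adjusted p = 0.038). The scan days shared by the strains held 3 NZO mice and 1 DBA mouse, and 1 mouse of each, too few for a check within days. Only Atp5f1 and Atp5h passed with each mouse left out in turn and under all 5 other scalings and background corrections. Erythroid markers were higher for 3 and lower for 2 of 7, stellate cell markers higher for 2 and lower for 3 of 8, endothelial markers higher for 2 of 8, and macrophage markers higher for 1 of 10. Their part was not tested.

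C3H livers were lower than 129Ola livers in many more members. By limma 36 of 90 passed, 1 higher and 35 lower in C3H, which is 40% beside 32% of all genes, of which 12.3% were higher and 19.7% lower. The direction of small differences rests on the scaling here. With the median of well detected probes, 19 members passed, 4 higher and 15 lower, which is 21.1% beside 29.2% (16.4% higher and 12.8% lower). That scaling moved the median difference of all genes from -0.08 to 0.04. The median over the members moved from -0.21 to -0.09, so relative to all genes it was -0.13 under both. Quantile normalization placed the members' median 0.01 above that of all genes. With slide as a random block 10 members passed, or 11.1%, beside 12.8%. Without C3H mouse 1, C3H mouse 3 or 129Ola mouse 5 the counts were 21 (23.3%), 23 (25.6%) and 23 (25.3%), beside 27.1%, 27% and 26.5% of all genes. The members' share was thus below that of all genes with slide as a block, without each of these mice and under median scaling. The 75th percentile with all mice placed it above. Over all 20 fits that left out 1 mouse each, the count of members ran from 21 to 39. Shares for the other fits are not given here.

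**Figure D3:**
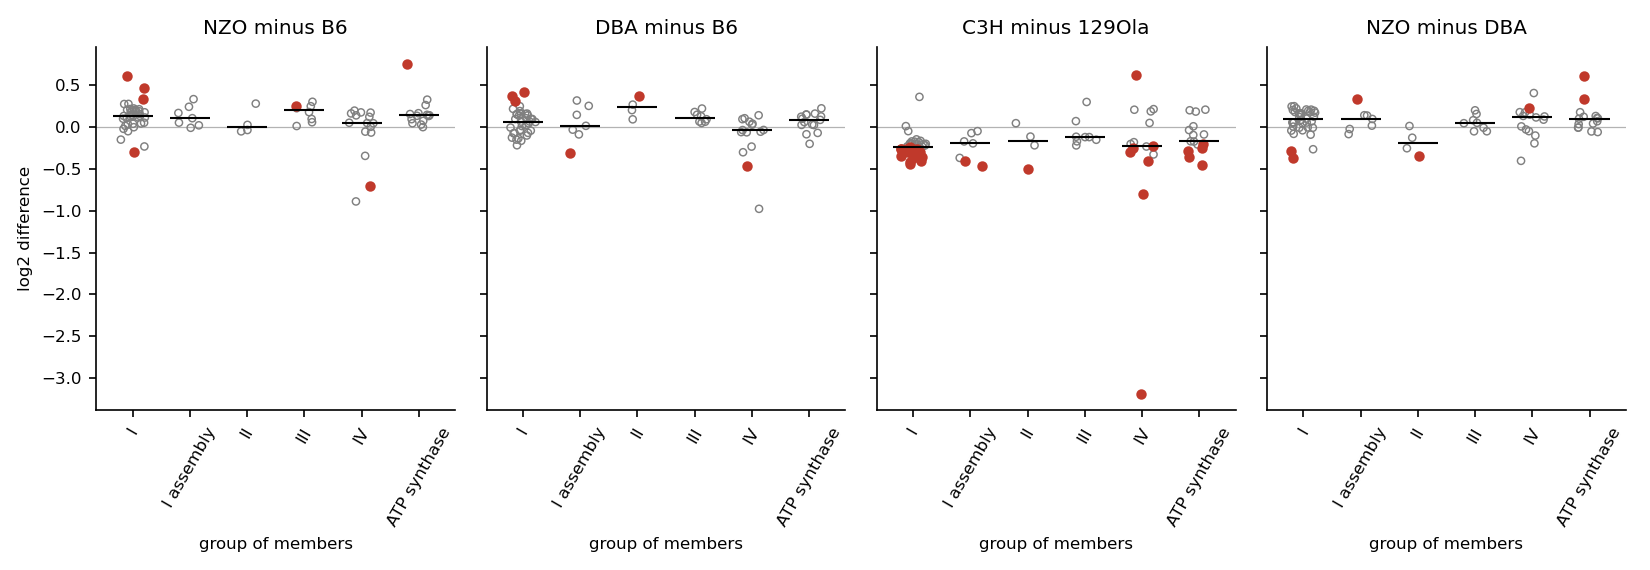
Difference between strains on the log2 scale for every tested member of a complex and for the complex I assembly factors, with 1 point per gene, filled points for those with an adjusted p under 0.05, and a bar at each group's median. With the 75th percentile scaling drawn here, most complex I points lie below 0 for C3H minus 129Ola, while in the other comparisons the medians of the complexes lie on both sides of 0, from -0.19 for complex II in NZO minus DBA to 0.23 for complex II in DBA minus B6.

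Complex IV held the clearest differences. Cox6b1, the widespread form of a subunit that faces the intermembrane space and bridges the complex IV dimer, read 4.94, 5.10, 4.93 and 4.94 in C3H mice 1, 2, 3 and 5. In 129Ola mice 4, 5, 7 and 9 it read 5.80, 5.74, 5.83 and 5.74, so the groups were well apart. The difference was -0.80 ± 0.09, or 1.74-fold lower in C3H (limma, adjusted p = 5.88e-06), and -0.69 with median scaling. The B6, NZO and DBA mice, at 4.65 to 5.13, lay with C3H. Cox6b2, the testis form of the same subunit, read 0.08, 0.46, 0.25 and 0.40 in C3H and 3.89, 3.58, 3.21 and 3.25 in 129Ola. C3H was lower by 9.11-fold (-3.19 ± 0.49, adjusted p = 9.43e-05). In the other 3 strains Cox6b2 ranged from -1.82 to 0.56. Over the main values and 31 alternatives that gave this comparison, the differences ran from -0.94 to -0.55 for Cox6b1 and from -3.28 to -2.42 for Cox6b2, with adjusted p-values of at most 0.0156 and 0.0433.

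The 7 testis markers did not follow Cox6b2. They had list means of -4.36 to -3.31 in 129Ola, with 1 to 3 of 7 detected, and of -3.07 to -1.35 in C3H. Cox4i1 read 8.71, 8.73, 8.70 and 8.67 in C3H and 9.17, 9.08, 9.13 and 9.03 in 129Ola, without overlap, and differed by -0.40 ± 0.07 (limma, adjusted p = 0.000379). Its counterpart Cox4i2, the lung form, was the single higher member. It read -0.62, -0.84, -0.26 and -0.10 in C3H and -1.01, -0.96, -1.21 and -1.14 in 129Ola, a difference of 0.63 ± 0.20 (adjusted p = 0.026). The Cox4i2 call held under only 2 of 5 other scalings and background corrections (limma, adjusted p up to 0.178). It was lost without C3H mouse 3 or 5 or 129Ola mouse 7 or 9 (up to 0.0898). In the main values the Cox4i pair thus moved in opposite directions, with the Cox4i2 side less firm, while the Cox6b pair moved in the same one.

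In complex II, Sdhb read 6.95, 7.13, 7.09 and 7.05 in C3H and 7.62, 7.54, 7.59 and 7.48 in 129Ola. The difference was -0.50 ± 0.10 (limma, adjusted p = 0.00081) and -0.39 with median scaling. The other complex II genes did not pass. Sdha, the flavoprotein that oxidises succinate, read 6.04 to 6.21 in C3H and 6.31 to 6.44 in 129Ola. Sdhc, the second membrane anchor, read 5.05 to 5.21 and 5.16 to 5.35, and Sdhd read 6.57 to 6.73 and 6.56 to 6.70. The iron-sulphur subunit was the 1 part of complex II that passed here. In DBA against B6 the membrane anchor Sdhd passed, and Sdhb did so as well with median scaling.

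Complex I, with 36 of the 90 tested members, supplied 17 of the 35 lower ones. That is 47.2% of its subunits, beside 19.7% of all genes that were lower. With median scaling 5 of its subunits (13.9%) were lower, beside 12.8% of all genes. Ndufa12 read 6.83, 6.91, 6.88 and 6.85 in C3H and 7.33, 7.37, 7.33 and 7.22 in 129Ola, a difference of -0.44 ± 0.09 (limma, adjusted p = 0.00149). Ndufb7 (-0.41), Ndufa10 (-0.42), Ndufa2 (-0.37) and Ndufb5 (-0.36), all accessory subunits, passed under both scalings as well. Ndufb6 (-0.34), Ndufb11 (-0.35), Ndufa7 (-0.29), Ndufa1 (-0.30), Ndufs3 (-0.27) and Ndufs7 (-0.29) passed only with the 75th percentile. The last of these, Ndufs7, carries an iron-sulphur cluster next to the quinone site, and Ndufs3 is a core subunit of the matrix arm. Among the assembly factors, Ndufaf2 (-0.40) and Ndufaf6 (-0.47) passed under both scalings. Ndufb8, which was higher in NZO and DBA, did not pass (-0.15).

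In ATP synthase, Atp5g2, a copy of the c subunit that forms the rotor ring, read 7.79, 7.90, 7.89 and 7.86 in C3H and 8.29, 8.28, 8.15 and 8.16 in 129Ola. The difference was -0.36 ± 0.08 (limma, adjusted p = 0.002). It passed with each mouse left out in turn, but under only 2 of 5 other scalings and background corrections (adjusted p = 0.0837 to 0.335 under the rest). Atp5j2 (-0.29) and Atp5d (-0.26), the delta subunit of the central stalk, passed only with the 75th percentile. Under median scaling, Atp5a1, the alpha subunit of the catalytic head, was instead higher in C3H by 0.31 (adjusted p = 0.0159), and so were Atp5g3 (0.32) and Cox6c (0.33). No complex III gene passed by limma under either scaling, 0 had an unadjusted p under 0.05 in both, and their differences ran from -0.22 to 0.30 with the 75th percentile.

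All 4 genes outside a complex were lower in C3H with the 75th percentile, and 3 of them with median scaling. Ndufa4l2 read -0.21, -0.39, -0.10 and -0.49 in C3H and 1.08, 0.33, 0.30 and 0.70 in 129Ola, a difference of -0.90 ± 0.16 (limma, adjusted p = 0.000431). Atp5s, also called factor B, was lower by -0.59 (adjusted p = 0.0104). Cox7a2l, which helps join complexes III and IV into supercomplexes, was lower by -0.33 (adjusted p = 0.00854), and Atp5sl by -0.32 (adjusted p = 0.018). The Atp5sl call ended under all 5 other scalings and background corrections (adjusted p = 0.0864 to 0.208) and without C3H mouse 5 or 129Ola mouse 4 (up to 0.0597). That of Cox7a2l ended under 4 of the 5 (adjusted p = 0.0659 to 0.185). For 7 members, Cox6b1, Cox6b2, Cox4i1, Ndufa4l2, Ndufaf2, Ndufaf6 and Atp5s, the difference passed under all 5 other scalings and background corrections and without each mouse. The mice did not overlap for 57 members (63.3%), 1 higher and 56 lower, beside 35.8% of all genes (13.6% higher and 22.2% lower). With median scaling this held for 33 (36.7%), 1 higher and 32 lower, beside 32.6% (18.2% higher and 14.4% lower). In the same mice 6 of 7 erythroid markers were higher in C3H, with list means of 3.63 to 4.02 against 2.54 to 3.01, and 7 of 10 macrophage markers were lower and 1, Marco, higher, with 1.89 to 2.81 against 2.40 to 2.80. Endothelial markers were higher for 2 and lower for 3 of 8, stellate cell markers higher for 1 and lower for 2 of 8, cholangiocyte markers lower for 2 of 5, and heart markers higher for 3 of 4. Their part was not tested.

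Whether C3H against 129Ola differed from the mean of NZO and DBA against B6 was tested as an interaction. By limma 35 of 90 members passed, 1 positive and 34 negative, which is 38.9% beside 27.5% of all genes (10.8% positive and 16.7% negative). With median scaling 19 passed, 2 positive and 17 negative, or 21.1% beside 25% (13.6% positive and 11.4% negative). Ndufa12 is an example with opposite directions. The mean of NZO and DBA was higher than B6 by 0.36, and C3H was lower than 129Ola by 0.44, with an interaction of -0.80. NZO alone was higher than B6 by 0.47, while Ndufa12 did not pass between DBA and B6. Sdhb had an interaction of -0.78 and Ndufb8 one of -0.66. The only member with a positive one under both scalings was Cox7c, at 0.59, and its probes disagree.

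C3H and 129Ola together stood apart from B6, NZO and DBA in 70 of 90 members by limma, 60 higher and 10 lower, which is 77.8% beside 55.4% of all genes (36.2% higher and 19.3% lower). With median scaling it was 67, 55 higher and 12 lower, or 74.4% beside 53.6% (30.3% higher and 23.3% lower). With quantile normalization 47 were higher and 18 lower, or 72.2% beside 49.8% (25.9% higher and 23.9% lower). With normexp background correction 31 were higher and 24 lower, or 61.1% beside 70.2% (51.2% higher and 19% lower). The median difference was 0.30 for the members and 0.12 for all genes. The arrays of these strain sets were scanned on different days and read with different versions of the scanner software, so strain set and processing cannot be told apart. With normexp background correction the members' median lay 0.13 below that of all genes, where the main values placed it 0.18 above, and with no filter on dim genes it lay 0.03 below. Within ATP synthase the subunits parted. Atp5a1 (-0.36), Atp5b (-0.26), Atp5c1 (-0.49), Atp5f1 (-0.41) and Atp5o (-0.44), the alpha, beta, gamma and b subunits and the stalk protein OSCP, were lower in the C3H and 129Ola set. Atp5e (0.76), Atp5j2 (0.47), Atp5g2 (0.47), Atp5d (0.43), Atp5g1 (0.42), Atp5k (0.36), Atp5h (0.18) and Atp5l (0.18) were higher.

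**Figure D4:**
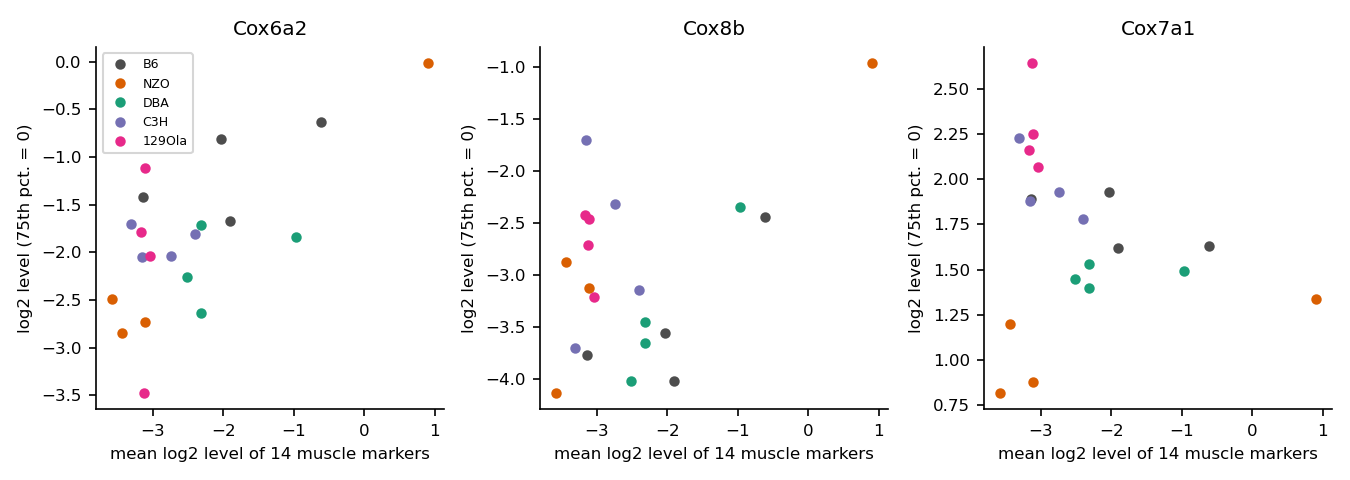
Level of Cox6a2, Cox8b and Cox7a1, the muscle forms of complex IV subunits, against the mean of 14 skeletal muscle markers in each of the 20 mice, both as log2 signal minus the array's 75th percentile. NZO mouse 7 has the highest marker mean, 0.91, and the highest Cox6a2 and Cox8b, while its Cox7a1 is the highest of the NZO mice but below all B6 mice.

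The muscle forms of complex IV were read beside muscle markers. Cox6a2, the muscle form of a subunit whose widespread form is Cox6a1, read -1.42, -0.63, -0.81 and -1.67 in B6 and -2.85, -0.02, -2.49 and -2.73 in NZO. NZO mouse 7, the mouse with the highest muscle marker mean, was above all B6 mice, and the other 3 were below them. The difference of -0.89 ± 0.53 did not pass (limma, adjusted p = 0.286), but without NZO mouse 7 it was -1.56 ± 0.40 (adjusted p = 0.0122). Cox6a1 read 9.59 to 9.80 in B6 and 9.74 to 10.03 in NZO and did not pass. Cox8b, a muscle form that was not tested, read -0.97 in NZO mouse 7 and -4.13 to -2.88 in the other NZO mice.

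Cox7a1 behaved unlike those. It read 1.89, 1.63, 1.93 and 1.62 in B6 and 1.20, 1.34, 0.82 and 0.88 in NZO, so the groups did not overlap. Mouse 7, at 1.34, was the highest of the NZO mice but stayed below all B6 mice. NZO was lower by 1.63-fold (-0.71 ± 0.14, limma, adjusted p = 0.0015), and the difference was -0.80 without mouse 7. DBA was in between, at 1.40 to 1.53. C3H and 129Ola, at 1.78 to 2.64, overlapped B6 or lay above it. Its widespread counterpart Cox7a2 was 6.41 to 6.73 in B6 and 6.43 to 6.84 in NZO. None of the 10 muscle markers tested passed between NZO and B6 by limma, and 0 had an unadjusted p under 0.05. Over the 14 on the array the list means were -3.13 to -0.62 in B6 and -3.57 to 0.91 in NZO. The 0.91 is that of mouse 7, and the other NZO mice lay between -3.57 and -3.11. Whether a marker passes without mouse 7 is not given here. The part of muscle RNA in the Cox6a2 and Cox7a1 results was not tested beyond the values without mouse 7. Cox8a, the widespread partner of Cox8b, was 8.23 to 8.39 in B6 and 8.27 to 8.61 in NZO, and was lower in C3H than in 129Ola by 0.22 (adjusted p = 0.0334) with the 75th percentile only.

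**Figure D5:**
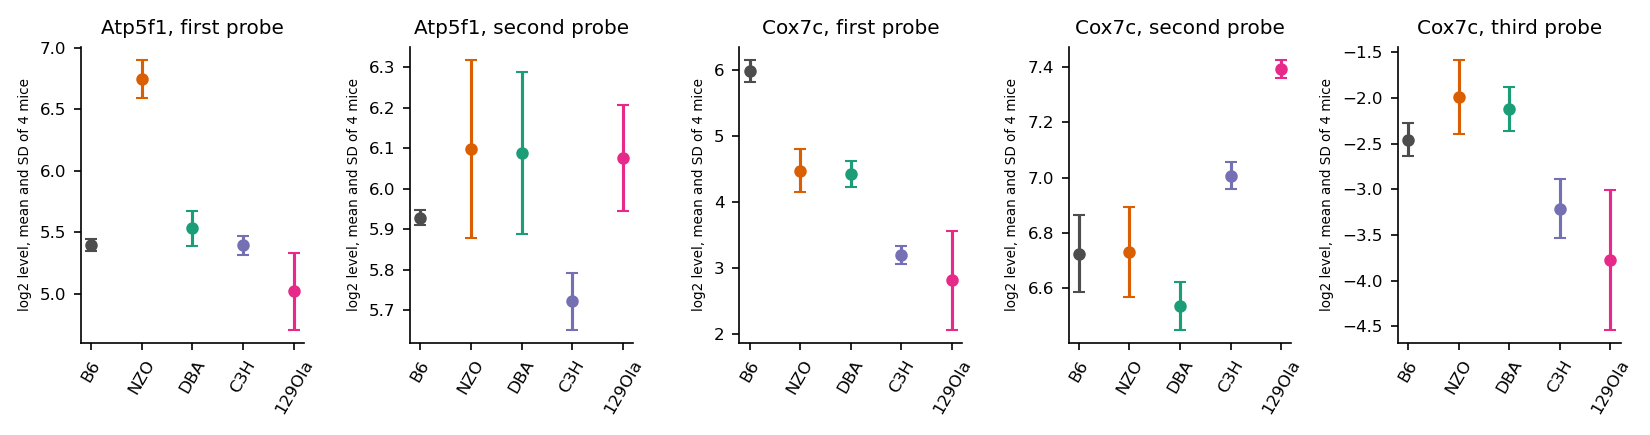
Level of each probe of Atp5f1 and Cox7c in each strain, as log2 signal minus the array's 75th percentile, with a point at each strain's mean and whiskers of 1 SD (n = 4 mice). The first Atp5f1 probe is higher in NZO than in B6 by 1.35 and the second by 0.17, and only the first Cox7c probe is far lower in NZO and DBA than in B6.

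For some members different probes of 1 gene gave different answers. The Atp5f1 probes lie at chr3:105745817-105745876 and chr3:105745782-105745841 (mm9) and share the 25 bases printed above. At the first, B6 read 5.39 ± 0.05 and NZO 6.74 ± 0.15 (SD, n = 4 mice), a difference of 1.35 (limma on probes, adjusted p = 4.16e-07). At the second, B6 read 5.93 ± 0.02 and NZO 6.10 ± 0.22, a difference of 0.17 (adjusted p = 0.343). The Atp5f1 difference thus comes mainly from 1 of 2 overlapping probes. For Cox7c, the probe at chr13:86184447-86184506 was lower by 1.51 in NZO and by 1.56 in DBA than in B6 (log2 differences of -1.51 and -1.56). The probe at chr13:86186301-86186360 gave 0.01 and -0.19. The third Cox7c probe, well above background on 13 arrays, gave 0.47 and 0.33.

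The Ndufa3 call in DBA rests on a probe with a difference of 0.78, against -0.16 for its brighter one, so with the brightest probe alone the direction turns. For Atp5l, 1 of 6 probes was lower in C3H than in 129Ola (-0.93), and the others lay between -0.14 and 0.25. One of 3 Uqcrb probes varied widely within strains, with a standard deviation of 2.21 in 129Ola, and differed by 1.06 without passing (adjusted p = 0.278). The Atp5h probes gave -0.42 and 0.01 for C3H minus 129Ola. Ndufb8, Ndufa6, Cox6b1 and Cox6b2 have 1 probe each, so no second probe bears on them.

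The rest of the pathway was read from a list of 57 genes, of which 55 were tested: mitochondrially encoded subunits, assembly factors, cytochrome c and other electron carriers. Between NZO and B6, 10 were higher and 6 lower, where 8.76% and 8.46% of all genes were. The mitochondrially encoded complex I subunits ND1 (-1.40, limma, adjusted p = 2.65e-08) and ND2 (-0.86, adjusted p = 3.24e-06) were lower. Of the 13 mitochondrially encoded genes 1 was higher and 4 were lower. Gpd2, which feeds electrons from glycerol phosphate, was higher by 1.05 and Cox18, an insertase for complex IV, by 0.99. Atpaf2 (-0.41), which helps assemble the ATP synthase head, and Cox19 (-0.51), a complex IV assembly factor, were lower. Between DBA and B6, 7 were higher and 6 lower, beside 6.76% and 7.91% of all genes. Cox18 (1.15), Sco2 (0.79), a copper carrier for complex IV, and Ttc19 (0.46), a complex III factor, were higher. Coa4 (-0.74), ND2 (-0.52) and ND5 (-0.56) were lower.

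Between C3H and 129Ola, 5 list genes were higher and 17 lower, beside 12.3% and 19.7% of all genes, or 7 and 14 with median scaling, beside 16.4% and 12.8%. They were led by Atpaf2 (-0.85), Coa4 (-1.37), Acad9 (0.81), Timmdc1 (-0.67), ND5 (-0.75) and ND4L (-0.59). Acad9 and Timmdc1 both assist complex I assembly and moved in opposite directions. NZO against DBA gave 8 higher and 5 lower, beside 8.78% and 7.48%, led by ND1 (-1.16), Atpaf2 (-0.61), Cox19 (-0.62), Etfb (0.43), Coa4 (0.67) and Atpif1 (0.51). Of 17 regulators of mitochondrial genes, none passed between NZO and B6 by limma, and 5 had an unadjusted p under 0.05. Ppara (0.48) and Pprc1 (0.66) were higher and Tfb1m (-0.35) lower in DBA than in B6. Yy1 (-0.65) and Tfb2m (-0.38) were lower in C3H than in 129Ola. The coactivators Ppargc1a (-0.74) and Ppargc1b (-1.26) were lower in NZO than in DBA.

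Promoter windows from RefSeq (GRCm38.p6, 250 bases before to 50 after the start) were found for 76 of the 93 members. They were searched on both strands for 4 fixed motifs of factors known from nuclear mitochondrial genes, and the result describes letters only. The NRF1 core GCATGCGC was in the windows of 12 members (15.8%) and of 3.05% of 27025 genes. The GABPA core CCGGAAG was in 17 (22.4%), against 9.93%. The YY1 core AAGATGGC was in 11 (14.5%), against 3.19%, and in 2 of those it lay wholly before the start. The ESRRA site TCAAGGTCA was in 2 (2.63%), against 0.466%. None of the motifs contains another.

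Upstream windows of 4 members are printed, with matches in capitals, to set the Cox6b pair beside members that hold the NRF1 core. Each is the 250 bases before the start, 5′ to 3′ on the strand of the gene. In Cox6a1 the NRF1 core matches on both strands within 1 run of letters, and a GABPA core follows near the start. In Cox6b1 the match is a GABPA core on the opposite strand, and in Cox6b2 none of the motifs is in the window.
Cox6a1, chr5:115348959-115349208, minus strand: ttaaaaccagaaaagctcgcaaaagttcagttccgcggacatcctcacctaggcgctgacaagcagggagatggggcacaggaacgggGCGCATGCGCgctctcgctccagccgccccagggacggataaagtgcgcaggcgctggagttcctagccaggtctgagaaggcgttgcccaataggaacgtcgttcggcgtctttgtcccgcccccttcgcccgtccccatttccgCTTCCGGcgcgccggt
Sdhb, chr4:140961021-140961270, plus strand: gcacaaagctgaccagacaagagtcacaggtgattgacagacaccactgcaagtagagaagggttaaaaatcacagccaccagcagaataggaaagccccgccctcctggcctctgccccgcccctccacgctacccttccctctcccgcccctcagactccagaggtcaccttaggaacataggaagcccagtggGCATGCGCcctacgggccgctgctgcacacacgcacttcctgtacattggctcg
Cox6b1, chr7:30626115-30626364, minus strand: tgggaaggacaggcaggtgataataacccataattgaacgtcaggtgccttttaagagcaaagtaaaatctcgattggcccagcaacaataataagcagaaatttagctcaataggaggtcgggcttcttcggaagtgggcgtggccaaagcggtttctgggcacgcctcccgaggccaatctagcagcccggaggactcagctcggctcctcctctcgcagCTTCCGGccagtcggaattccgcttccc
Cox6b2, chr7:4753095-4753344, minus strand: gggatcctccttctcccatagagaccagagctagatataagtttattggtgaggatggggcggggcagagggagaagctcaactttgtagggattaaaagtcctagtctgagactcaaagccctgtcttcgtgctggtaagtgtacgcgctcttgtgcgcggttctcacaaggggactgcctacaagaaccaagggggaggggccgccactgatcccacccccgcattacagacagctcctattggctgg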

How the data were processed

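The deposited scanner files hold 1 array per mouse, with processed signal intensity already background corrected by Agilent Feature Extraction, per the file headers (version 11.5.1.1 on the C3H and 129Ola arrays, 11.0.1.1 on the rest, where the submitters' processing notes name 9.1). Controls and outlier spots were left out, and 55642 probes were kept of 55681. Each array was scaled as log2 signal minus its 75th percentile, and probes were averaged per gene name. A gene was tested if 1 of its probes was well above background in every mouse of a strain, which kept 20580. Strain means were fitted over all 20 arrays with limma 3.58.1 in R 4.3.3 (lmFit, eBayes, 15 residual degrees of freedom). The p-values were two-sided, adjusted by Benjamini-Hochberg over all genes tested, with a threshold of 0.05. The script was tested on simulated data. The number of arrays limits the precision. Alternatives were other scalings, quantile normalization, normexp with offset 50, the authors' deposited value table (a score on a quantile normalized scale), no filter on dim genes, the brightest probe, slide, scan day or animal number as a block, and leaving out each mouse. Named genes were members past the threshold (at most 25 per comparison, by p), the tissue isoforms, the complex II genes, the extremes of each complex, disagreeing probes, and at most 6 further list genes per comparison. Members and lists were chosen with earlier results of these data known, and the printed sequences after the values were seen. Counts cover all members, and 1 member is not reported here by name.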

Additional observations from a re-analysis of the deposited data

Results flagged for a closer look

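In 130 groups of 4 mice, made of 20 genes and the complex medians in each strain, 8 held 1 mouse far from its strain mates, and chance alone gives about 1 in 20 groups. Cox6a2 read -0.02 in NZO 7, against -2.85 to -2.49 in the other NZO mice, and Cox6b2 read 0.56 in the same mouse, against -1.54 to -1.28. NZO 7 also had the highest mean of the skeletal muscle markers, 0.91, and the part of muscle RNA was not tested. Mouse 129Ola 7 stood apart in Atp5f1, at 5.88 against 5.43 to 5.44, in Uqcr11, at 8.19 against 7.99 to 8.02, and in the complex III median, at 0.35 against 0.15 to 0.17. Cox6b1 was 5.10 in C3H 2, against 4.93 to 4.94. Ndufv3 was 3.00 in B6 11, against 2.79 to 2.81, and Atp5h was 7.54 in DBA 5, against 7.64 to 7.66.

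For 18 members, C3H minus 129Ola differed from the mean of NZO and DBA minus B6 under both scalings (limma interaction, adjusted p under 0.05). Requiring both scalings was chosen after the values were seen. With the 75th percentile alone 38.9% of members passed, beside 27.5% of all genes. With median scaling alone it was 21.1%, beside 25%. The share of all genes past both is not given here, so the 18 are not read as a trait of the members. Complex IV held the most negative value, Cox6b2 at -3.23, and also Cox6b1 at -0.80 and Cox4i1 at -0.45. In complex I the values were -0.80 for Ndufa12, -0.66 for Ndufb8, -0.57 for Ndufb7, -0.53 for Ndufa2, -0.49 for Ndufa10, -0.44 for Ndufs3, -0.43 for Ndufv3, -0.39 for Ndufa9 and -0.38 for Ndufb9. The assembly factors Ndufaf2 and Ndufaf1 had -0.41 each. Sdhb of complex II had -0.78, Atp5g2 of ATP synthase -0.45 and Cox7a2l -0.50. Cox7c, at 0.59, was the only positive one. The comparison of C3H with 129Ola lies on other scan days than that with B6, and strain and day cannot be told apart in it.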

How the results depend on the processing

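The differences of single members changed direction in 7 cases. Ndufa3 in DBA minus B6 was -0.1617 with its brightest probe. In C3H minus 129Ola, Atp5h was 0.0456 with quantile normalization, 0.0902 with the authors' deposited table and 0.0108 with the brightest probe. Ndufb9 was 0.0140 with quantile normalization, and Atp5j2 (0.0079) and Ndufs3 (0.0042) turned with the authors' deposited table. Counts of members past the threshold moved as follows, and the cause was not tested. The share of all genes that passed moved as well. For C3H against 129Ola it went from 32% to 12.8% with slide as a random block. For DBA against B6 it went from 14.7% to 12.2% with scan day as a block. Where the share of all genes is not given above, a count is not read as a trait of the members. For NZO against B6 the count was 17 with slide as a random block (correlation 0.338) and 1 within scan day 2. For DBA against B6 it was 11 with median scaling, 14 with quantile normalization, 15 with the authors' deposited table, 4 with no filter, 4 with slide, 2 with scan day as a block, 0 within day 1 and 2 within day 2. For C3H against 129Ola it was 19 with median scaling, 21 with the 75th percentile of well detected probes, 21 with quantile normalization, 16 with normexp, 20 with the authors' deposited table, 23 with no filter and 10 with slide. For NZO against DBA it was 13 with quantile normalization, 15 with the authors' deposited table, 3 with no filter, 5 with scan day as a block, 1 within day 1 and 0 within day 2. For any strain difference it was 26 with the 75th percentile of well detected probes, 27 with normexp, 25 with no filter and 27 with slide. For the interaction it was 19 with median scaling, 12 with the 75th percentile of well detected probes, 13 with quantile normalization, 12 with normexp, 16 with the authors' deposited table, 23 with no filter and 18 with slide. At the 2 zeros, limma gave 5 members each at an unadjusted p under 0.05. The median over the members moved by more than the spread between mice (0.09) in these cases. For NZO against B6 it was -0.0069 (quantile), 0.0385 (normexp), -0.0007 (authors' deposited table) and 0.0116 (day 2). For DBA against B6 it was -0.0292 (day as a block) and -0.1099 (day 2). For C3H against 129Ola it was -0.0928 (median scaling), -0.0428 (75th percentile of well detected probes), -0.0197 (quantile), -0.0561 (normexp) and -0.0188 (authors' deposited table). For the strain sets it was 0.1592 (75th percentile of well detected probes), 0.1391 (quantile), 0.0232 (normexp) and 0.1486 (authors' deposited table). Leaving out each mouse gave 5 to 11 members for NZO against B6, where 11 came without NZO 9. It gave 2 to 7 for DBA against B6: 4 without B6 9, B6 10 or B6 11, 3 without B6 15, DBA 9 or DBA 15, and 2 without DBA 8. It gave 21 to 39 for C3H against 129Ola, with 21 without C3H 1 and 23 without C3H 3 or 129Ola 5. NZO against DBA ranged from 3 to 11, with 4 without NZO 7, NZO 11, DBA 9 or DBA 15 and 3 without DBA 8. Any strain difference ranged from 28 (without C3H 1) to 48, the interaction from 20 (without C3H 1; 21 without B6 10) to 43, and the strain sets from 69 to 71. The medians ranged from 0.0718 to 0.1756, 0.0158 to 0.1172, -0.2435 to -0.19, 0.0233 to 0.1214 and 0.2849 to 0.3222 for NZO and DBA against B6, C3H against 129Ola, NZO against DBA and the strain sets. The animal numbers did not pair the mice: over 13 same-numbered pairs, deviations from the strain mean correlated at -0.289 to 0.305. A replicate block on them left 5 residual degrees of freedom. With the block the counts were 0 for NZO against B6, 0 for DBA against B6, 2 for C3H against 129Ola, 0 for NZO against DBA, 1 for any strain difference, 36 for the strain sets and 3 for the interaction, with 6, 4 and 3 members at an unadjusted p under 0.05 in the comparisons with 0.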

Other observations

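With the 75th percentile, most mitochondrially encoded subunits and most nuclear ones went opposite ways between the strain sets. In C3H and 129Ola together, 8 of 13 were lower than in B6, NZO and DBA and 1 was higher (limma, adjusted p under 0.05), beside 19.3% and 36.2% of all genes. The lower ones included ND3 (-0.61), ND4 (-0.44) and ND4L (-0.30) of complex I, CYTB (-0.37) of complex III, COX1 (-0.37), COX2 (-0.43) and COX3 (-0.54) of complex IV, and ATP6 (-0.22) of ATP synthase. ND2 (0.22) was the higher one. Over 5 other scalings and background corrections 8 to 11 were lower and 0 or 1 higher, and the median over the 13 ran from -0.59 to -0.27. The nuclear side was less stable. Its median was 0.30 with 60 members higher and 10 lower, and with normexp it was 0.02 with 31 higher and 24 lower. Strain set, scan day and software version cannot be told apart here.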
